A study of Mus musculus with 24 samples.

Results

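The genes described here are 10 genes known from white adipocytes, Lep, Adipoq, Retn, Fabp4, Plin1, Pparg, Lipe, Pnpla2, Cfd and Car3, followed in RNA sequencing of uninjured mouse carotid arteries. They were chosen by name, as the rows whose Ensembl identifier carries one of these symbols in GENCODE mouse release 21. Each symbol matched 1 row, so that they made up 10 of 55421 listed genes, and all 10 passed the filter on low counts that left 25033 genes. The 24 libraries came from as many ovariectomized C57BL/6 mice, in 4 groups of 6 named in the sample titles as OVX, E2, E4 and TAM. OVX mice received vehicle, E2 mice 17β-estradiol, E4 mice estetrol, a fetal estrogen that differs from E2 by further hydroxyl groups, and TAM mice tamoxifen, a selective estrogen receptor modulator. Ovariectomy was therefore common to every group, controls included, and there was no group with intact ovaries. The labels give an age of 9 weeks and the series text 3 weeks of treatment, whereas the methods describe a shorter one by subcutaneous pellets. E2 and E4 pellets held different amounts of hormone, the E4 amount being set by the authors for an estrogenic effect like that of E2, no tamoxifen dose was given in the sources used here, and the 6 E4 libraries carry a placebo entry in their treatment field, so that their group rests on their titles.

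Adipocytes store triglyceride in a droplet coated by perilipins and release it as fatty acids through a chain of lipases. They also secrete hormones: leptin reports fat stores to the brain, adiponectin acts on the metabolism of liver, muscle and vessels, and resistin is made by white adipocytes in rodents. Pparg is the nuclear receptor that drives adipocyte differentiation, and it controls many of the other genes. Fat lies around arteries as perivascular adipose tissue, and in mice much of the fat of the neck and chest is brown. Brown adipocytes share most of the 10 genes with white ones, with Lep and Retn the more typical of white fat. Estrogens are known to restrain the accumulation of fat after ovariectomy, largely through estrogen receptor α.

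The promoters of the 3 members whose level moved by more than 2-fold, and of Adipoq, whose level did not pass the test in any comparison of the fit of all 24 libraries without a covariate, are shown to set their sequence beside their response. RefSeq windows were matched for 8 of the 10 members, 11 windows in all, with none for Fabp4 and Car3. The sequences are the 150 bases before the annotated start on GRCm38.p6, all on the plus strand, with motif matches in capitals:
Lep (chr6:29060071-29060220): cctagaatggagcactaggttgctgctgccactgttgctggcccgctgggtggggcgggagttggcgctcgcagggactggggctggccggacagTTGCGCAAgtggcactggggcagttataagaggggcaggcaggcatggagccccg
Retn (chr8:3655620-3655769): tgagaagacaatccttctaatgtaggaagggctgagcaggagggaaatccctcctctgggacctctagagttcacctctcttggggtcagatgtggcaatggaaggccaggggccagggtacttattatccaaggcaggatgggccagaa
Cfd (chr10:79890703-79890852): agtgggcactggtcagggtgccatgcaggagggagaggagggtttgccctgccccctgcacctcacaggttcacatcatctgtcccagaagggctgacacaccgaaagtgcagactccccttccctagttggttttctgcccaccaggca
Adipoq (chr16:23146386-23146535): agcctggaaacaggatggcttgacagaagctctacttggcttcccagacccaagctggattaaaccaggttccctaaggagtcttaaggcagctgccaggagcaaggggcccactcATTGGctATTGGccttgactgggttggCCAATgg
The capitals in Lep mark TTGCGCAA, a match to the C/EBP letters TTGCNNAA that starts 55 bases before the transcription start and reads the same on both strands. Those in Adipoq mark 3 matches to the CCAAT box, starting 34, 27 and 7 bases before the start, the first 2 of them on the minus strand. Over the 250 bases before the start, and counting both strands, the C/EBP letters were found in 3 of the 11 member windows (Lep, Plin1 and 1 of the Pparg windows) against 9.56% of 32851 windows. CCAAT occurred in 3 of 11 (Adipoq and 2 of Pparg) against 33.8%, and the TATA box TATAAA in 1 of 11 (Pparg) against 12.4%. A palindromic estrogen response element, taken as GGTCA and TGACC 3 bases apart, was found in 0 of 11 windows and in 0.0639% of all windows. The PPAR direct repeat, AGGTCA repeated after 1 base, was found in 0 of 11 and in 0.0335%. These matches describe letters in a window and not binding.

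Library totals ranged from 24647246 counts (E4 replicate C38) to 64221401, with a median of 45156106, and the lowest count of any member in any library was 220, for Lep. Levels are given as CPM, which set a gene's counts against the library total after TMM scaling. The tissue label did not cover all that the libraries held. Defining brown adipocyte genes were abundant in every library, with Ucp1, the uncoupling protein of brown fat, at 194 to 955 CPM and Cox8b at 101 to 408 CPM, so the members are called adipocyte genes below, and their levels cannot be assigned to white fat. Genes of a sympathetic ganglion summed to between 34.1 CPM (OVX C5) and 4629 CPM (E4 C20), and TAM C35 was the next lowest with 142 CPM. Myh4, a fast skeletal muscle myosin, exceeded 10 CPM in 6 libraries spread over the 4 groups, and Pth, the parathyroid hormone gene, did so in OVX C2, E4 C16 and E4 C38. In bulk tissue, fewer cells of a type and less RNA per cell cannot be told apart.

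Together the 10 genes took 0.471% to 1.06% of all counts of a library. Per kilobase of exon, Cfd was the highest of them in OVX mice, with 756 ± 274 CPM per kb (SD, n = 6), ahead of Fabp4 with 554 ± 191, Car3 with 552 ± 121 and Adipoq with 396 ± 120. Pnpla2 followed with 130 ± 54.0 CPM per kb, Plin1 with 75.8 ± 25.8, Lipe with 59.4 ± 24.1, Retn with 34.2 ± 9.87, Pparg with 31.5 ± 10.2 and Lep with 8.11 ± 2.27. Neighbours in this order overlapped over the 6 mice down to Adipoq and again from Pnpla2 to Pparg, whereas every Adipoq value lay above every Pnpla2 value and every Lep value lay below every Pparg value.

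**Figure D1:**
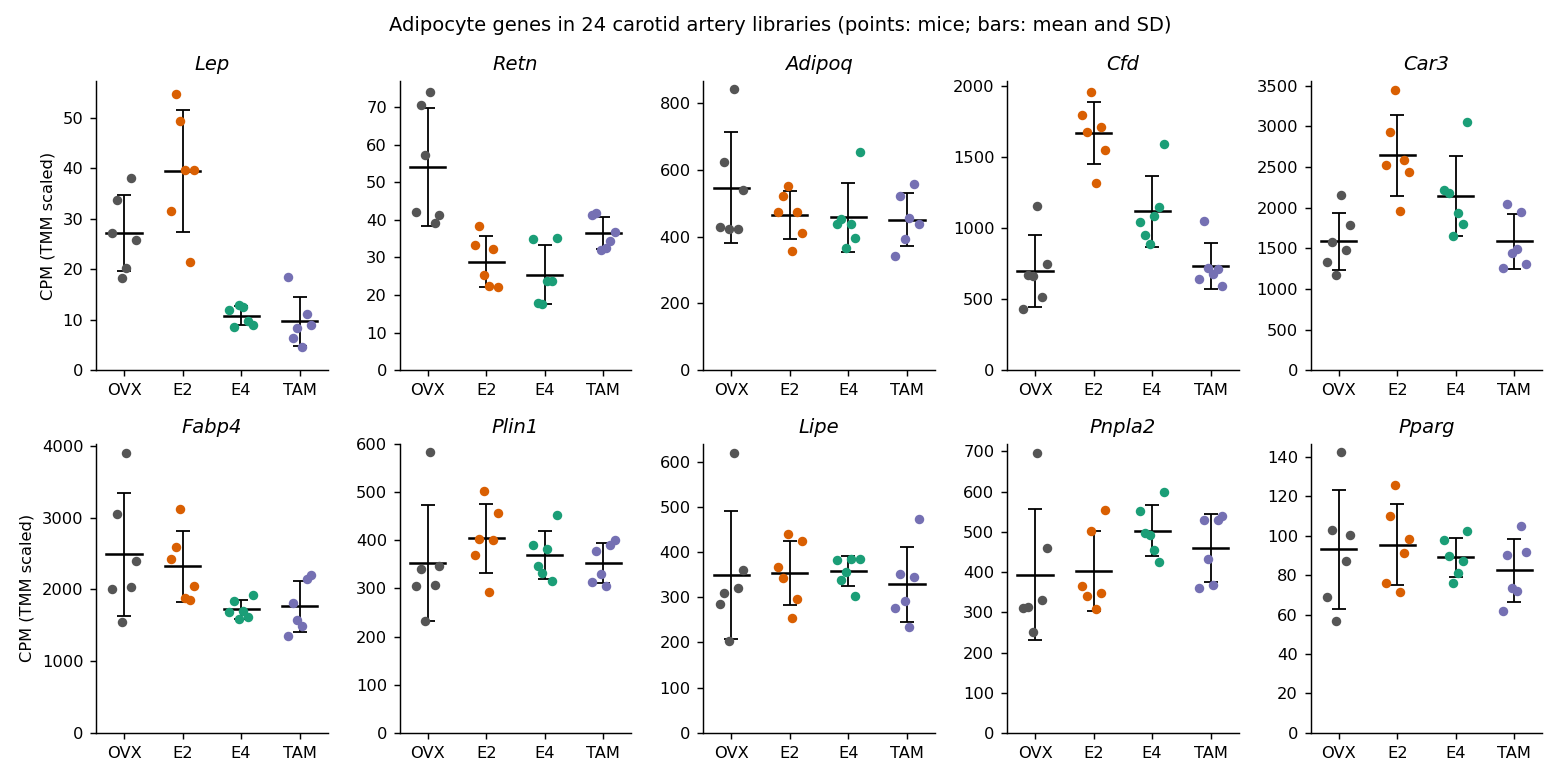
CPM of each of the 10 adipocyte genes (vertical axes, starting at 0) in the 6 mice of each group (horizontal axes). Points are mice, and bars give the mean and SD. E4 and TAM mice sit low for Lep, OVX mice high for Retn and E2 mice high for Cfd and Car3, while Adipoq, Plin1, Lipe, Pnpla2 and Pparg overlap between all groups.

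Fold changes were tested over all 25033 genes in 1 fit of the 24 libraries (edgeR, quasi-likelihood F test, p-values adjusted by Benjamini-Hochberg). A gene was called where its level changed by more than 2-fold with an adjusted p-value under 0.05, and is said to pass the test on the adjusted p-value alone. E2, E4 and TAM were each compared with the same 6 OVX libraries, so these comparisons share their controls, and the values stand side by side without a test of their overlap. Of the 10 members, 1 was called in E2 against OVX (Cfd), where 1.27% of all genes were called, 2 in E4 against OVX (Lep and Retn; 2.51% of all genes) and 1 in TAM against OVX (Lep; 0.308%). Between treatments, 1 was called in E4 against E2 (Lep; 2.47%), 2 in TAM against E2 (Lep and Cfd; 1.65%) and 0 in TAM against E4 (0.196%). At the adjusted p-value alone, 3 members passed in E2 against OVX, where 4.16% of all genes did, 4 in E4 against OVX (22%), 1 in TAM against OVX (2.21%), 1 in E4 against E2 (12.5%), 3 in TAM against E2 (6.44%) and 0 in TAM against E4 (0.34%). For E4 against OVX the share of members that passed is to be read against a background in which more than 1 gene in 5 passed. In TAM against E4, where no member passed, 3 members had an unadjusted p-value under 0.05, and 0 passed with DESeq2. Median log2 fold changes of the 10 members lay between -0.20 (TAM against E2) and 0.04 (E2 against OVX), against -0.01 to 0.01 over all genes. Of the 10 members, 7, 5 and 4 had a value above 0 in E2, E4 and TAM against OVX, and 2 in each of the comparisons between treatments.

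Leptin mRNA was low under E4 and tamoxifen and was not lowered by E2. Lep, the gene of the satiety hormone, ranged from 18.3 to 38.03 CPM in OVX mice (median 26.5), from 21.4 to 54.8 CPM in E2 mice (median 39.7), from 8.64 to 13.01 CPM in E4 mice (median 10.8) and from 4.68 to 18.5 CPM in TAM mice (median 8.68). All 6 E4 mice lay below all OVX and all E2 mice. In the TAM group, 5 of 6 mice lay below every OVX mouse, replicate C11 with 18.5 CPM being just above the lowest of them, and all 6 lay below every E2 mouse. On the log2 scale, Lep fell by 1.33 ± 0.27 (SE) in E4 against OVX (adjusted p = 0.00199, 2.52-fold) and by 1.49 ± 0.27 in TAM against OVX (adjusted p = 0.0081, 2.8-fold). Against E2 the difference was larger, with log2 fold changes of -1.87 ± 0.27 for E4 (adjusted p = 0.00015) and -2.02 ± 0.27 for TAM (adjusted p = 3.42e-05). E2 against OVX gave 0.54 ± 0.26, which did not pass (adjusted p = 0.311, unadjusted p = 0.0498), with 4 of 6 E2 mice above every OVX mouse. Between TAM and E4 the log2 difference of Lep was -0.15, with a 95% interval from -0.67 to 0.36. Lep in E4 against E2 did not pass in the second animal-number series alone (-1.68, adjusted p = 0.232) or with the macrophage list as a covariate (-1.88, adjusted p = 0.168). In that comparison 12.5% of all genes passed in either direction. All 8 macrophage, all 8 T cell and 4 of 8 adventitial fibroblast genes passed with lower expression in E4. The T cell genes summed to 3.68 to 9.79 CPM (median 6.00) in E4 and to 7.42 to 327 CPM (median 11.3) in E2 mice. The part of the T cell and fibroblast genes was not tested.

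The decrease of Lep held in each of the 24 fits that left out 1 library, with log2 fold changes from -1.42 to -1.21 for E4 and from -1.78 to -1.34 for TAM against OVX, and it was as large with the brown adipocyte genes as a covariate (-1.29 and -1.45). TAM against OVX lost its call in a fit of those 2 groups alone, at the same fold change (-1.48, adjusted p = 0.0722). Its 2 animal-number series, which the labels do not explain, gave -1.17 and -1.94 when taken alone, neither passing the test. Lep in E4 against OVX also did not pass in either series alone, at -1.16 (adjusted p = 0.0528) and -1.61 (adjusted p = 0.188). In E4-treated mice the brown adipocyte genes moved as well: 7 of 11 passed the test with lower expression than in OVX, where 12.5% of all genes did, and their summed level was 788 to 1254 CPM against 1100 to 2802 CPM. Other cell type lists moved with E4 too. Of 8 B cell genes 7 fell, with summed levels of 4.07 to 8.36 CPM against 6.32 to 40.0 CPM in OVX mice, and of 8 adventitial fibroblast genes 4 fell, with 2605 to 4193 CPM against 3710 to 5615 CPM. Of 8 T cell genes 1 fell, and no ganglion gene passed, with a median log2 fold change of 0.97. Of 8 endothelial genes 1 rose (Vwf) and 1 fell (Egfl7), and of 8 macrophage genes 1 fell (Mrc1). Of 8 smooth muscle genes 1 rose (Myocd), as did 1 of 6 Schwann cell genes (Sox10). Of all genes, 9.52% rose and 12.5% fell with E4. With TAM, 2 of 8 B cell genes fell, where 0.919% of all genes did. Of 8 genes each, 1 adventitial fibroblast, 1 smooth muscle (Myocd) and 1 endothelial gene (Vwf) rose with TAM, where 1.29% of all genes did. The part of the B cell, T cell, fibroblast, endothelial, smooth muscle and Schwann cell lists in the levels of Lep and Retn was not tested.

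Resistin mRNA was lower under both estrogens. Retn, a peptide hormone of rodent adipocytes, ranged from 39.1 to 74.1 CPM in OVX mice (median 49.6), from 22.1 to 38.3 in E2 mice (median 28.7), from 17.5 to 35.03 in E4 mice (median 23.7) and from 31.9 to 41.7 in TAM mice (median 35.6). No E2 or E4 mouse reached the lowest OVX mouse, and 4 of 6 TAM mice were below it. The log2 fold changes against OVX were -0.90 ± 0.20 for E2 (SE, adjusted p = 0.0067), -1.09 ± 0.20 for E4 (adjusted p = 0.00104) and -0.57 ± 0.19 for TAM, which did not pass (adjusted p = 0.101). TAM against E4 gave 0.52 ± 0.20 (adjusted p = 0.387). E2 against OVX did not pass without the libraries with Myh4 over 10 CPM (-0.87, adjusted p = 0.1), nor in the first (-0.92, adjusted p = 0.158) or the second animal-number series alone (-0.67, adjusted p = 0.306). The OVX values were split by animal-number series, at 41.9 to 74.1 CPM in the 4 mice of the first and 39.1 and 41.4 CPM in the 2 of the second. E4 against OVX gave -1.38 in the first series (adjusted p = 0.017) and -0.54 in the second (adjusted p = 0.325), and the difference between series had an unadjusted p of 0.0391 and an adjusted p of 0.867. The E4 value of Retn was no longer past 2-fold, with the test still passed, without OVX C5 (-0.97), OVX C3 (-0.997) or E4 C20 (-0.999), and with the Adipoq (-0.93), brown adipocyte (-0.91) or macrophage level (-0.95) as a covariate.

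Cfd and Car3 moved in the opposite direction to Retn. Cfd encodes adipsin, the serine protease complement factor D, which adipocytes secrete. Its level was 429 to 1156 CPM in OVX mice (median 666), 1319 to 1957 in E2 mice (median 1693), 885 to 1593 in E4 mice (median 1065) and 594 to 1050 in TAM mice (median 691). Every E2 mouse exceeded every OVX and every TAM mouse, whereas E4 mice lay between and overlapped with both E2 and OVX. Cfd rose by 1.26 ± 0.19 in E2 against OVX on the log2 scale (adjusted p = 0.000206, 2.39-fold) and by 0.68 ± 0.19 in E4 against OVX (adjusted p = 0.0159, 1.60-fold), and TAM against OVX gave 0.07 ± 0.19 (95% interval -0.31 to 0.45). TAM was lower than E2 by 1.19 ± 0.19 (adjusted p = 0.000389). E4 against E2 gave -0.58 ± 0.19, on the threshold (adjusted p = 0.051, and 0.0272 with DESeq2). The 95% interval of this difference between the estrogens ran from -0.95 to -0.20.

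The macrophage list moved with Cfd in E2 mice. All 8 macrophage genes were higher in E2 than in OVX mice, where 2.88% of all genes passed in that direction. All 8 were lower in E4 and in TAM than in E2 mice, where 12.5% and 6.44% of all genes passed in either direction. The summed level of the macrophage genes was 966 to 1485 CPM in E2, 578 to 1041 in OVX, 414 to 770 in E4 and 522 to 750 in TAM mice. With this list as a covariate, which itself differed between E2 and the other groups, the log2 fold change of Cfd in E2 against OVX was 0.71 (adjusted p = 0.0677) and in TAM against E2 -0.53 (adjusted p = 0.241), while E4 against OVX, where the list did not rise, gave 0.84 (adjusted p = 0.00337). E4 against E2 turned direction for Cfd, from -0.58 to 0.13 (adjusted p = 0.845), in a fit that called 0 of all genes in that comparison, with 4487 at an unadjusted p-value under 0.05. Under the same covariate Retn was the member called in E2 against OVX (-1.57, adjusted p = 0.00118), and Retn (1.11, adjusted p = 0.0399) and Lep (-2.04, adjusted p = 0.0347) were those called in TAM against E2. In fits with no covariate, Cfd in E4 against OVX did not pass without the 3 libraries with Pth over 10 CPM (0.59, adjusted p = 0.0586). Nor did it pass in either animal-number series alone (0.40 and 1.02). Cfd in E2 against OVX passed in the first series (1.31, adjusted p = 0.0409) and not in the second (1.26, adjusted p = 0.0636).

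Car3 encodes carbonic anhydrase 3, an abundant enzyme of adipocytes and of slow skeletal muscle. It ranged from 1175 to 2151 CPM in OVX mice (median 1528), from 1963 to 3442 in E2 mice (median 2551), from 1655 to 3047 in E4 mice (median 2059) and from 1261 to 2045 in TAM mice (median 1468). Of the E2 mice, 5 of 6 exceeded every OVX mouse, and 5 of 6 TAM mice lay below every E2 mouse. Car3 rose by 0.74 ± 0.17 in E2 against OVX (adjusted p = 0.0127, 1.67-fold) and was lower by the same amount in TAM than in E2 (-0.74 ± 0.17, adjusted p = 0.0109), both under the 2-fold threshold. E4 against OVX gave 0.44 ± 0.17 for Car3 (adjusted p = 0.0724), which passed with DESeq2 (0.45, adjusted p = 0.0378), without OVX C5 (0.55, adjusted p = 0.0333) and with the macrophage list as a covariate (0.54, adjusted p = 0.0233). Car3 also passed there with the brown adipocyte list as a covariate, a fit in which 7 of the 10 members passed. Skeletal muscle genes summed to 62.8 to 284 CPM in E2 and to 42.3 to 178 CPM in OVX mice, none of the 11 tested passing between these groups. Without the 6 libraries with Myh4 over 10 CPM, 3 of them from E2 mice, the Car3 values were 0.61 (adjusted p = 0.222) and -0.60 (adjusted p = 0.156). With the macrophage list as a covariate, which was higher in E2 mice than in both OVX and TAM mice, Car3 gave 0.27 in E2 against OVX (adjusted p = 0.476) and -0.19 in TAM against E2 (adjusted p = 0.694). Neither comparison passed in an animal-number series alone, with 0.92 and 0.50 for E2 against OVX and -0.91 and -0.54 for TAM against E2.

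Fabp4, the fatty acid binding protein of adipocytes, which capillary endothelium and macrophages also express, ranged from 1548 to 3904 CPM in OVX mice (median 2214), from 1854 to 3123 in E2 mice, from 1583 to 1925 in E4 mice (median 1692) and from 1357 to 2195 in TAM mice. E4 and OVX mice overlapped, no E4 mouse being below the lowest OVX mouse. The log2 fold change in E4 against OVX was -0.53 ± 0.19 (adjusted p = 0.0432). It passed in 14 of the 24 fits that left out 1 library, with values from -0.63 to -0.35, and not without OVX C5 and TAM C35 (-0.34, adjusted p = 0.112) or with the brown adipocyte list as a covariate (-0.03, adjusted p = 0.895). TAM against OVX gave a similar value that did not pass (-0.50 ± 0.19, adjusted p = 0.128).

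The remaining 5 members carry the differentiation program and the storage and release of fat, and none passed the test in any of the 6 comparisons in the fit of all 24 libraries without a covariate. They are Adipoq (adiponectin), Pparg, Plin1 (perilipin 1, the droplet coat protein), Pnpla2 (adipose triglyceride lipase, which takes the first fatty acid from triglyceride) and Lipe (hormone-sensitive lipase, which acts on the next step). Their 30 log2 fold changes lay between -0.28 and 0.35 with standard errors of 0.16 to 0.20, and the smallest adjusted p-value was 0.204, for Pnpla2 in E4 against OVX. The widest 95% bounds were -0.62 and 0.75, so that changes past 2-fold lay outside the interval for all 30, while smaller ones could not be resolved at this spread. Adipoq ranged from 422 to 841 CPM in OVX, 358 to 551 in E2, 365 to 655 in E4 and 342 to 559 in TAM mice. Plin1 ranged from 232 to 582 CPM in OVX mice and from 292 to 502 CPM over the treated mice. Pparg lay between 56.7 and 142 CPM, Lipe between 204 and 619 CPM and Pnpla2 between 251 and 696 CPM, in each case with both ends in the OVX group. For Plin1, Pparg, Lipe and Pnpla2 the lowest library was OVX C4 and the highest OVX C5, and the latter is the library with almost no ganglion genes. Pnpla2 passed in E4 against OVX without OVX C5 (0.60, adjusted p = 0.0192) and without OVX C5 and TAM C35 (0.61, adjusted p = 0.0119). With the brown adipocyte list as a covariate, 3 of the 5 passed with higher expression in E4 than in OVX mice, Pnpla2 (0.82, adjusted p = 0.00385), Plin1 (0.46, adjusted p = 0.0171) and Lipe (0.54, adjusted p = 0.0211), and Pnpla2 also passed in E4 against E2 (0.63, adjusted p = 0.0133). With the macrophage list, Adipoq passed with lower expression in E2 than in OVX mice (-0.81, adjusted p = 0.0337). Exons of Lipe overlap those of 4732471J01Rik on the other strand by 918 bases, so its counts may be split.

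**Figure D2:**
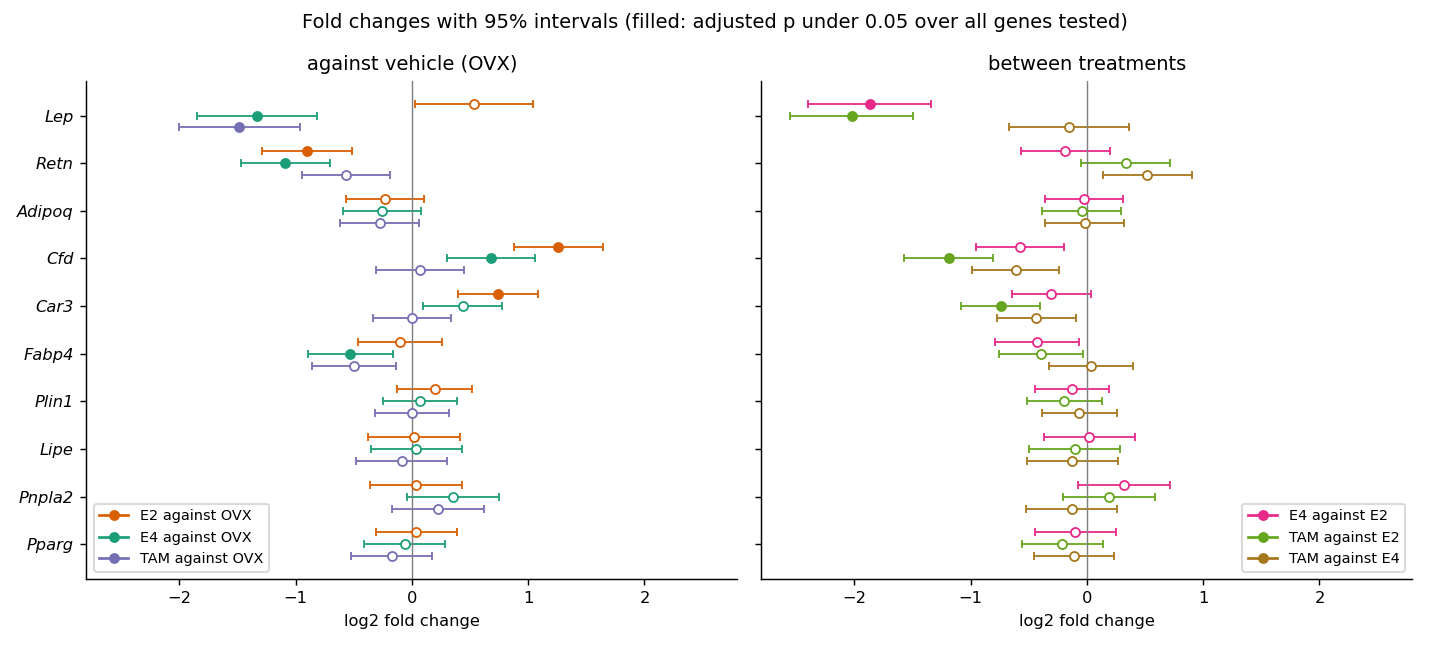
Log2 fold changes (horizontal axes) of the 10 adipocyte genes with 95% intervals, against OVX on the left and between treatments on the right. Filled points passed the test over all 25033 genes. Lep lies far to the left for E4 and TAM, Cfd to the right for E2, and Adipoq, Plin1, Lipe, Pnpla2 and Pparg straddle 0 throughout.

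Adipoq varied from mouse to mouse without passing the test between groups. Its log2 fold changes against OVX were -0.23 with E2, -0.26 with E4 and -0.28 with TAM. Ratios to Adipoq are therefore raised in the treated groups by about as much. The members were set against Adipoq in the same library, as the log2 ratio of their CPM. For Cfd and Car3 the E2 and E4 groups then stood apart from each other and from the other groups, while TAM and OVX overlapped. Cfd over Adipoq was -0.00 to 0.66 in OVX, 0.34 to 1.01 in TAM, 1.07 to 1.53 in E4 and 1.68 to 1.92 in E2 mice, so that the E4 range lay above that of TAM and below that of E2 without overlap. Car3 over Adipoq was 1.33 to 1.81 in OVX, 1.58 to 1.97 in TAM, 2.14 to 2.34 in E4 and 2.41 to 2.64 in E2 mice, again with E4 apart from both neighbours. Retn over Adipoq was -3.71 to -2.88 in OVX mice and -4.45 to -3.77 in E2 mice, without overlap, and E4 mice, at -4.67 to -3.65, reached just into the OVX range. Lep over Adipoq was -6.18 to -4.81 in E4 mice and overlapped with OVX mice (-5.38 to -3.48) but not with E2 mice (-4.47 to -3.17). TAM mice, at -6.60 to -4.21, overlapped with both OVX and E2 mice on this ratio. Pnpla2 over Adipoq was -0.99 to -0.23 in OVX and -0.13 to 0.43 in E4 mice, which did not overlap, whereas the CPM of Pnpla2 did.

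A fit with the level of Adipoq as a covariate, chosen after the data were seen, was also run. It estimated for each gene how far that gene follows Adipoq, whereas a ratio takes this to be in proportion. The p-values of this fit therefore do not test the ratios. Car3 then passed in E4 against OVX (0.64 ± 0.09, SE, adjusted p = 0.000176), in E4 against E2 (-0.28 ± 0.09, adjusted p = 0.0347) and in TAM against E4 (-0.42 ± 0.09, adjusted p = 0.0272), none of which passed in the fit of all libraries without a covariate. Cfd passed in E4 against E2 (-0.56 ± 0.12, adjusted p = 0.00414) and in TAM against E4 (-0.59 ± 0.12, adjusted p = 0.0202), and in TAM against OVX it did not (0.34 ± 0.13, adjusted p = 0.177). Pnpla2 passed in E4 against OVX (0.59 ± 0.16, adjusted p = 0.0183) and Plin1 in E2 against OVX (0.38 ± 0.11, adjusted p = 0.0329). Without the covariate their values were 0.35 and 0.19, and those of Adipoq in the same comparisons were -0.26 and -0.23. Fabp4 no longer passed in E4 against OVX (-0.26 ± 0.12, adjusted p = 0.138). Lep kept its decrease in both, with -1.43 in E4 (adjusted p = 0.00193) and -1.60 in TAM against OVX (adjusted p = 0.00434). Fabp4 passed in E4 against E2 (-0.38 ± 0.11, adjusted p = 0.0271). With the macrophage list as the covariate instead, no member passed in E4 against E2, and the values of Cfd (0.13), Car3 (0.28) and Fabp4 (0.25) had the opposite sign, so that these differences between the estrogens depend on which covariate is used.

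**Figure D3:**
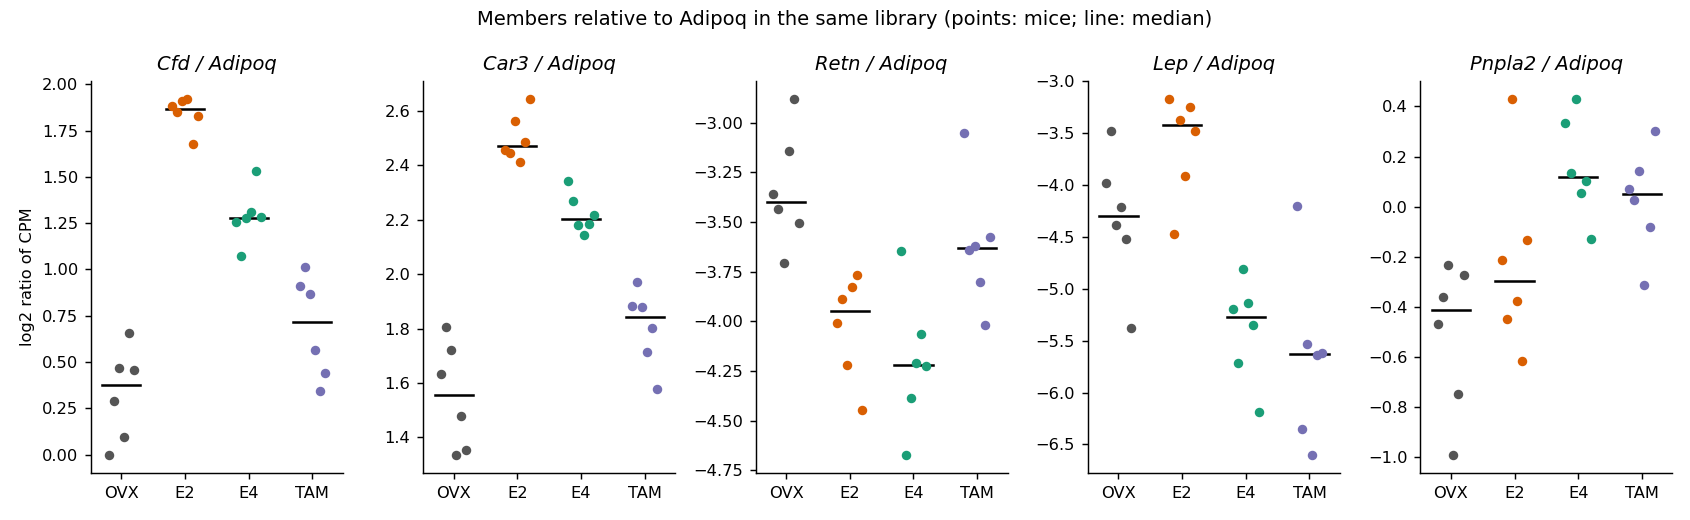
Log2 ratio of the CPM of Cfd, Car3, Retn, Lep and Pnpla2 to that of Adipoq in the same library (vertical axes, which do not start at 0) in the 6 mice of each group. Points are mice and lines medians. For Cfd and Car3 the E2 mice stand highest and the E4 mice second, with no overlap between them.

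Across the 24 libraries, log2 CPM of the members correlated with Adipoq to different degrees, 9 correlations having been computed. Two-sided permutation tests with 100000 resamples were used, without adjustment. Pparg had a Pearson's r of 0.78 (permutation p = 3e-05) and a Spearman's rho of 0.78 (p = 2e-05), and Fabp4 an r of 0.78 (permutation p = 2e-05) and a rho of 0.67 (p = 0.00048). Plin1 had an r of 0.66 (permutation p = 0.0004) and a rho of 0.63 (p = 0.0013). Retn followed with r = 0.56 (permutation p = 0.0047, rho = 0.40, p = 0.053), Lipe with r = 0.55 (permutation p = 0.0061, rho = 0.46, p = 0.026), Car3 with r = 0.45 (permutation p = 0.026, rho = 0.50, p = 0.015) and Pnpla2 with r = 0.42 (permutation p = 0.039, rho = 0.36, p = 0.086). Cfd (r = 0.25, permutation p = 0.25, rho = 0.30, p = 0.15) and Lep (r = 0.07, permutation p = 0.77, rho = 0.03, p = 0.89) showed none that passed. Leaving out the 2 libraries farthest from the Adipoq median, OVX C5 and E4 C39, gave r = 0.70 for Pparg, 0.76 for Fabp4, 0.44 for Plin1 (permutation p = 0.04) and 0.43 for Retn (permutation p = 0.046), which held. It gave 0.29 for Lipe (permutation p = 0.19) and 0.12 for Pnpla2 (permutation p = 0.61), which no longer passed. For Car3 it gave 0.41 (permutation p = 0.06), whose r moved little while its p-value no longer passed. Within the TAM group, which holds neither of the 2 libraries, r was 0.313 for Lipe and 0.695 for Pnpla2. In the first and the second animal-number series, r was 0.83 and 0.68 for Pparg, 0.92 and 0.32 for Fabp4, 0.72 and 0.53 for Plin1, 0.54 and 0.63 for Retn, and 0.33 and -0.37 for Lep.

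After the group means were subtracted, r with Adipoq was higher for every member but Lep. It was 0.90 for Car3 and 0.80 for Cfd, 0.82 for Fabp4 and Pparg, 0.80 for Plin1, 0.66 for Pnpla2, 0.61 for Lipe and 0.58 for Retn, and -0.24 for Lep. Car3 followed Adipoq in each of the 4 groups, with r from 0.88 to 0.97 over 6 mice, given as a description. Cfd did so less evenly, with 0.86 to 0.93 in OVX, E2 and E4 and 0.49 in TAM mice, and in the second animal-number series, over all its groups, its r was 0.01. Among all 45 pairs of members the median r was 0.61 within groups and 0.43 over all libraries, with Lipe and Plin1 (0.92) the closest pair within groups and Car3 and Cfd (0.90) over all libraries. The 9 pairs with Lep ran from -0.33 to 0.13 within groups, and the 36 other pairs from 0.13 to 0.92. All genes of a library share its scaling and the piece of tissue taken, so that these values are descriptions.

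**Figure D4:**
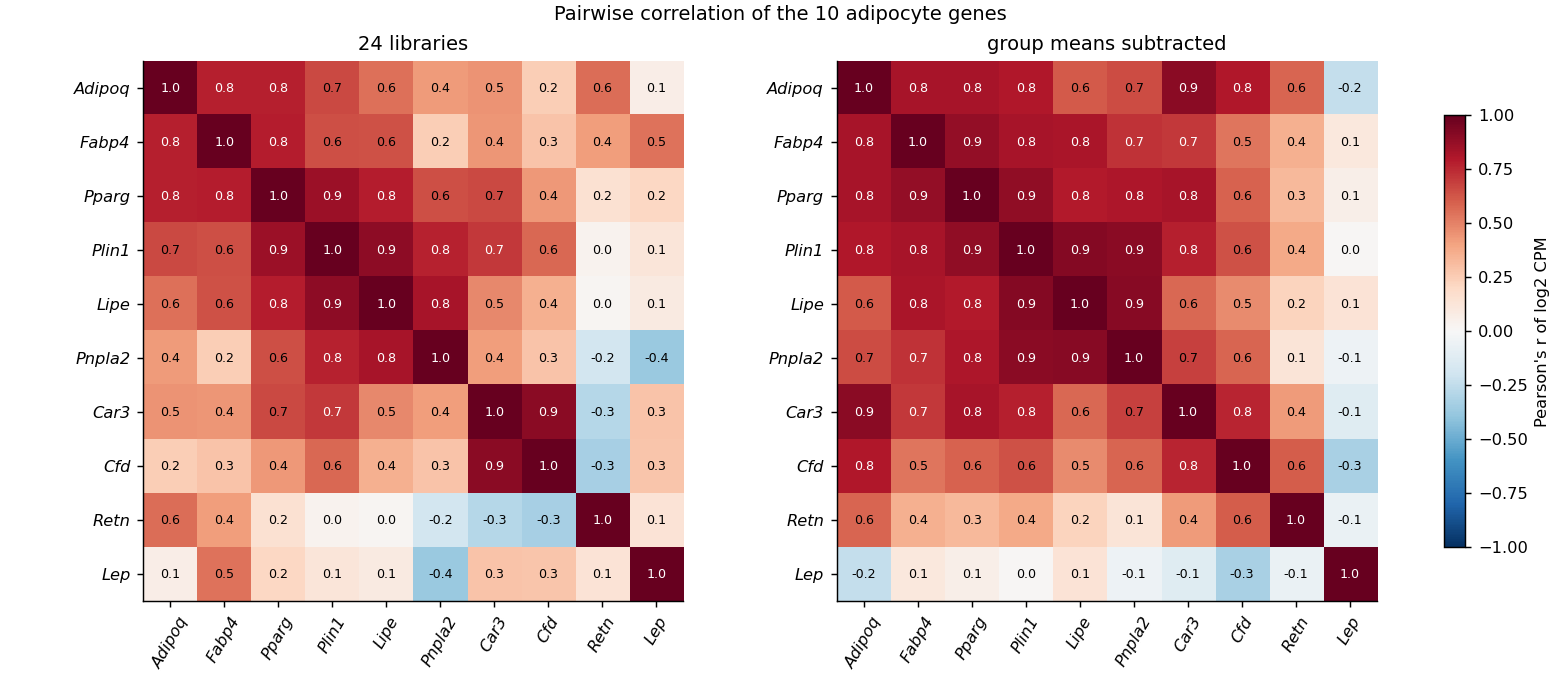
Pearson's r of log2 CPM for each pair of the 10 adipocyte genes over the 24 libraries (left) and after subtraction of the group means (right), on a colour scale from -1 to 1. Once group means are removed, Lep stands apart, with values of -0.33 to 0.13, and Cfd and Car3 join the other genes.

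The genes most like the members as a group, by r with the mean of their standardized levels over 24 libraries among 19522 genes with a mean of at least 1 CPM, included Uck1 (0.93), Cdo1 (0.92), Eif4ebp1 (0.92), Pex11a (0.92), Coq9 (0.91), Cd36 (0.90), Scp2-ps2 (0.90) and Acad11 (0.90). Cd36 is a fatty acid transporter, Pex11a acts in the division of peroxisomes and Acad11 in fatty acid oxidation. Nearest genes of single members, looked up after the values were known, differed. For Cfd, the 15 closest non-members were major urinary protein genes, led by Mup12 (0.93), near-identical copies whose counts cannot be told apart, and then the complement gene C4a (0.91). For Car3 the closest was Adig (0.89), a small membrane protein gene of adipocytes, for Retn Ifi27l2a (0.90), for Lep Ndufaf4 (0.87) and for Adipoq Ppm1m (0.87). With group means subtracted, r was 0.70 for Cfd with Mup12, 0.82 for Car3 with Adig and 0.71 for Retn with Ifi27l2a. It was 0.55 for Lep with Ndufaf4 and 0.92 for Adipoq with Ppm1m.

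Further lists cover other genes of the adipocyte. In E2 against OVX, 1 of 12 genes of the lipid droplet and lipolysis list passed with lower expression, where 1.28% of all genes did, and 0 with higher expression. In E4 against OVX, 2 rose (9.52% of all genes) and 3 fell (12.5%), among them G0s2, the inhibitor of adipose triglyceride lipase, at -0.66 ± 0.18 (SE, adjusted p = 0.0127), and Hilpda, another inhibitor of this lipase, at -0.74 ± 0.12 (adjusted p = 0.000439). In TAM against OVX, 0 rose (1.29%) and 2 fell (0.919%), G0s2 (-0.87 ± 0.18, adjusted p = 0.0184) and Hilpda. Cidec and Plin4, further droplet proteins, passed in none of the 6 comparisons, at 174 to 427 and 380 to 1066 CPM. Of 17 genes of fatty acid and triglyceride synthesis, 2 rose and 1 fell with E2, 1 rose and 3 fell with E4, and 0 rose and 1 fell with TAM, to be read against the same shares of all genes. Gpam, which takes the first step of triglyceride synthesis, rose with E2 (0.82 ± 0.11, SE, adjusted p = 2.15e-05) and with E4 (0.69 ± 0.11, adjusted p = 0.000356), and Mlxipl, a transcription factor of lipid synthesis, rose with E2. Dgat2, which takes the last step, was lower with E2 (-0.71 ± 0.20, adjusted p = 0.0407) and with E4 (-0.66 ± 0.20, adjusted p = 0.0211), and Thrsp was lower with E4 (-0.65 ± 0.22, adjusted p = 0.0344) and with TAM (-0.82 ± 0.22, adjusted p = 0.0475).

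Among 9 adipogenic transcription factors, Zfp423, a preadipocyte factor, was higher under each treatment, by 0.43 ± 0.11 with E2 (SE, adjusted p = 0.023), 0.71 ± 0.11 with E4 (adjusted p = 0.000364) and 0.49 ± 0.11 with TAM (adjusted p = 0.0266) against OVX. In all, 1, 3 and 1 of the 9 rose, where 2.88%, 9.52% and 1.29% of all genes did, and 0 fell. Cebpa, which like Pparg drives differentiation, passed in no comparison and lay between 104 and 285 CPM. Of 7 genes of lipid and glucose uptake, 0 passed with E2 or TAM and 2 fell with E4, where 12.5% of all genes fell. Of 9 genes that control lipolysis, 1 fell with E4 and 0 passed with E2 or TAM against OVX, and Adrb3, the adipocyte β3-adrenergic receptor, was lower in E4 (-0.95 ± 0.22, adjusted p = 0.0075) and in TAM (-0.89 ± 0.22, adjusted p = 0.0149) than in E2 mice. The receptors for leptin and adiponectin were present. Lepr ranged from 13.6 to 24.7 CPM, Adipor1 from 100 to 139 and Adipor2 from 301 to 660. Lepr and Adipor2 passed in no comparison, and Adipor1 was higher in E4 than in OVX mice by 0.23 ± 0.06 (adjusted p = 0.0159), with no overlap, and it passed in E4 against E2 as well.

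Of 8 further secreted or surface genes of white adipocytes, 1 rose and 1 fell with E2, 0 rose and 3 fell with E4, and 0 rose and 1 fell with TAM against OVX. Of all genes, 2.88% rose and 1.28% fell with E2, 9.52% rose and 12.5% fell with E4, and 1.29% rose and 0.919% fell with TAM. Adig ranged from 57.1 to 132 CPM in OVX, 136 to 232 in E2, 91.2 to 160 in E4 and 48.0 to 76.6 in TAM mice. It rose by 1.01 ± 0.18 in E2 against OVX (SE, adjusted p = 0.00101) and was lower in TAM than in E2 (-1.48 ± 0.18, adjusted p = 1.32e-05) and than in E4 mice (-0.87 ± 0.18, adjusted p = 0.0275). Its r with Cfd was 0.87 and with Car3 0.89 over the 24 libraries. Apln, the gene of the peptide apelin, which endothelium also makes, was low, at 1.92 to 10.02 CPM, and fell with E2 (-1.22 ± 0.19, adjusted p = 0.000298), E4 (-1.24 ± 0.20, adjusted p = 0.000412) and TAM (-0.83 ± 0.19, adjusted p = 0.0286), with no overlap with OVX in any of the 3.

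Many thermogenic genes of brown fat are also under the control of Pparg. Ucp1 was 368 to 955 CPM in OVX, 229 to 733 in E2, 194 to 339 in E4 and 223 to 424 in TAM mice, and all E4 mice lay below all OVX mice (-1.09 ± 0.25, SE, adjusted p = 0.00515). Elovl3, a fatty acid elongase of brown fat, was lower with E4 (-1.16 ± 0.39, adjusted p = 0.0391), as was Cox8b (-0.86 ± 0.23, adjusted p = 0.0105). With E2, 1 of the 11 brown adipocyte genes rose, Dio2, which activates thyroid hormone (1.43 ± 0.29, adjusted p = 0.00358), and 1 fell, where 2.88% and 1.28% of all genes did. With TAM 0 of 11 passed in either direction against OVX, where 2.21% of all genes passed.

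The mean standardized level of the members varied with the brown adipocyte genes, with a median r of 0.58 over 11 genes and a range of 0.02 to 0.75, and ran against the ganglion genes, with r from -0.64 to -0.59 over all 8. OVX C5 had the highest mean standardized member level (1.77 SD) and the lowest summed ganglion level, and OVX C4 the lowest member level (-1.11). TAM C35, with 142.5 CPM of ganglion genes, had a member level of -0.008, and OVX C4 had 2688 CPM of ganglion genes. The median was 0.50 for adventitial fibroblast and 0.48 for T cell genes. For macrophage genes r was 0.49 to 0.61, for smooth muscle genes -0.11 to 0.53 and for all 19522 genes the median was 0.03. No ganglion gene passed in E2, E4 or TAM against OVX. Without OVX C5 and TAM C35, the libraries with few ganglion genes, the Lep values against OVX were -1.39 with E4 and -1.52 with TAM and Cfd rose by 1.46 with E2.

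**Figure D5:**
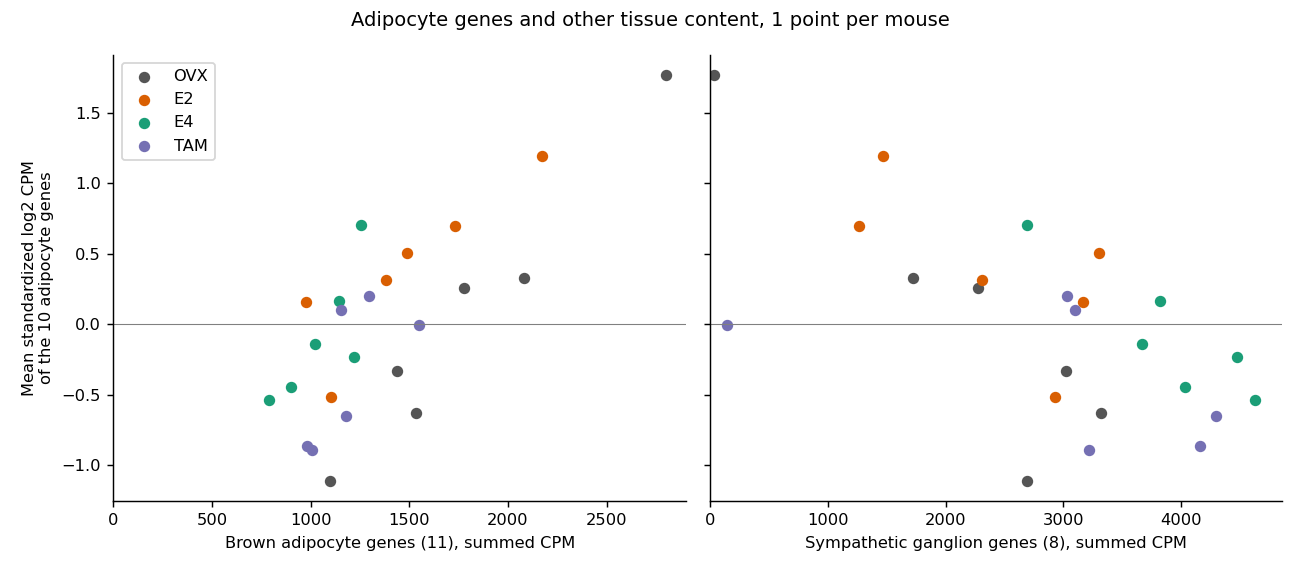
Mean standardized log2 CPM of the 10 adipocyte genes (vertical axis) against the summed CPM of 11 brown adipocyte genes (left) and 8 sympathetic ganglion genes (right), 1 point per mouse, coloured by group. The OVX mouse at the top, C5, has the most brown adipocyte and the least ganglion signal.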

How the data were processed

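RNA of carotid arteries from 24 mice was sequenced as stranded mRNA libraries with paired reads. Per the labels, the authors used bcl2fastq 2.17, Trim Galore, Bowtie2 and featureCounts with mouse build GRCm38 (mm10). The deposited values are estimated counts per gene, without normalization, and the strand setting is not given in the sources used here. Values with decimals were rounded. Gene names and exon lengths came from GENCODE mouse release 21. All 24 libraries entered 1 model with edgeR 4.0.16 in R 4.3.3 (TMM scaling, default filter on low counts, quasi-likelihood test, Benjamini-Hochberg adjustment over 25033 genes). Standard errors were derived from the F statistic, and 95% intervals assumed a normal distribution. Log2 CPM used a prior count of 2. DESeq2 1.42.0 was an alternative, beside others of scaling, filter, libraries and number series. Covariates and the fits without libraries with Myh4 or Pth over 10 CPM were added after the data were seen. Correlations were computed in Python 3.11.15. Each library has its own animal number, so no samples were paired. The procedure was tested on simulated data. The members and gene lists were chosen with earlier results of these data known. Named are all members, the counts and called genes of each list, a fixed set of adipocyte and receptor genes, and the 10 genes most like the members, of which some are not reported here. Genes with values from the lists that were not called, and nearest genes of single members, were picked after their values were seen.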

Additional observations from a re-analysis of the deposited data

Results flagged for a closer look

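In each group of 6 mice, a single value far from the others was looked for in the 10 members and in the library totals, 44 groups of values in all, of which chance would flag about 2.2, and 5 were found. E4 C39 was the highest E4 mouse for Adipoq, at 655 CPM against 365 to 453 in the others, and for Cfd, at 1593 CPM against 885 to 1149. OVX C5 stood at 582 CPM of Plin1, the other OVX mice at 232 to 347. TAM C12 had 1050 CPM of Cfd, against 594 to 717 in the other TAM mice. The library of E4 C38 held 24647246 counts, the others of its group 37505055 to 44224858. No effect of treatment on a member differed between the 2 animal-number series after adjustment, and neither did that on any of the 26618 genes tested. The second series held only 2 OVX mice, so this does not show that the series agree.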

How the results depend on the processing

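In E4 against OVX, where 2 members were called, 1 was called in the first number series alone, without OVX C5 and TAM C35, and with the Adipoq, brown adipocyte or macrophage level as a covariate, 0 in the second series alone, and 4 with no fold threshold. Fits that left out 1 library each called 1 to 2, with 1 without OVX C3, OVX C5 or E4 C20. On the adjusted p-value alone, 3 members passed in E4 against OVX with RLE scaling, with no filter on low counts and without tamoxifen. The same number passed in a fit of only the 2 groups and with the number series as a covariate. Of the 4 that passed without an alternative, Fabp4 was nearest the threshold (adjusted p = 0.0432). In E2 against OVX, 0 were called in the second series alone and 3 with no fold threshold. In TAM against OVX, 0 were called in either series alone and in a fit of only the 2 groups. In E4 against E2, 0 were called in the second series alone and with the macrophage covariate. With that covariate 9 of 10 members had a log2 fold change above 0 in E4 against E2, against 2 without it, among them Cfd (0.131) and Car3 (0.28), and Adig also changed sign (0.036). Cfd in TAM against OVX was -0.037 without the libraries with Pth over 10 CPM, and -0.063 to 0.279 over the fits without 1 library, below 0 without OVX C2, OVX C24 or TAM C12. The correlation of Lep with Adipoq was -0.24 with group means subtracted and -0.37 in the second series. The causes were not tested. Of 1902 values of the 48 named fold changes, 1660 kept direction and side of the threshold, 213 no longer passed, 22 newly passed and 7 changed sign. Of 1461 values of the other 37 member fold changes, the largest of size 0.429 without an alternative, 140 changed sign.

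Over all genes, at least 10 counts in every library called 193, 306, 45, 330, 257 and 29 genes, in the order E2, E4 and TAM against OVX, E4 and TAM against E2, and TAM against E4, against 318, 629, 77, 618, 413 and 49. DESeq2 called 80 in TAM against E4. In TAM against OVX, the fit of 2 groups called 17, leaving out OVX C5 and TAM C35 49, OVX C3 29, TAM C33 39 and the Myh4 libraries 148. E4 against OVX called 414 without OVX C3, and E4 against E2 405 without E2 C9 and 317 without the Myh4 libraries. The brown covariate called 317 in E4 against OVX, 49 in TAM against OVX and 271 in E4 against E2, and the macrophage covariate 949 in E2 against OVX and 0 in E4 against E2. The first series alone called 198 in E2, 1 in TAM against OVX, 1043 in E4 against E2 and 1 in TAM against E4. The second called 86, 5 and 0 against OVX, 0 and 94 against E2 and 17 in TAM against E4. No paired analysis was possible because the groups share no replicate numbers.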
